A study of Sus scrofa with 4 samples.

Results

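The regions described here are open chromatin regions that lie deep inside very long genes of porcine fetal fibroblasts. Peaks of 4 libraries were merged wherever they overlapped by 1 bp or more, and a merged region was kept if it lay on chromosomes 1 to 18, inside a protein-coding RefSeq gene model of 500 kb or longer (build Sscrofa11.1) and over 10 kb from both ends of that model. This rule kept 5552 of 121788 merged regions, and of 116392 on chromosomes 1 to 18. They lay in 240 of the 245 models of that length, which in turn are 245 of 18722 protein-coding models on these chromosomes. The rule used position only, so the number of regions per gene, their rank and the libraries that called them were free to vary.

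ATAC-seq reads out where chromatin is open: the transposase Tn5 cuts and tags DNA that nucleosomes leave free, and its fragments pile up there as peaks. The cells were skin fibroblasts labelled PFFs, all serum-starved. The 2 controls (control 1 and control 4) were WT cells carrying pTK-642, and the 2 BRG1 libraries (BRG1 1 and BRG1 4) were made from BRG1-overexpressed cells carrying pTK-642-BRG1. BRG1 is the ATPase of the BAF chromatin remodelling complex, and the comparison asks how its over-expression bears on chromatin openness in donor cells for nuclear transfer. Whether both libraries of a group are separate cultures is not stated in the labels, so p-values here reflect only the spread between these libraries, which may be technical. The labels also do not give the promoter that drives BRG1 or the number of cell clones.

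Very long mammalian genes are built mostly of introns. Many encode adhesion molecules, synaptic proteins and ion channels of neurons, and others encode transcription factors, scaffolds and signalling enzymes that many tissues use. Enhancers, short stretches where transcription factors bind and displace nucleosomes, often lie in such introns, and they may act on the gene that holds them or on a neighbour. The gene table used here gives the start and end of a model but no exon or strand, so a region could be placed in a gene but not in an exon or an intron, and no sequence of the regions was used here.

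The deposited lists held 107475, 105954, 96367 and 90851 peaks, in the order control 1, control 4, BRG1 1 and BRG1 4 that is used for the libraries throughout. Median peak width was 541 bp in BRG1 4 and 396 to 404 bp in the other 3. Absolute depth is unknown, so a missing peak means only that none was called. At most 0.202% of intervals were identical between any pair of lists. All 11 fibroblast markers examined (COL1A1, COL1A2, COL3A1, PDGFRA, PDGFRB, THY1, VIM, TWIST1, PRRX1, FAP and LUM) had a peak within 1 kb of a gene end in all 4 libraries. Of 29 matched markers of keratinocytes, endothelium, immune cells, melanocytes and glia, muscle, neurons and adipocytes, 13 did, among them SYT1, RBFOX3, GAD1 and SNAP25 of 6 neuronal markers. A peak at a gene end does not measure expression, and for the same reason the level of BRG1 itself could not be checked in these libraries.

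Deep regions were sparse and very unevenly spread over the long genes. The 245 models ran from 500.6 to 3459.9 kb with a median of 687.2 kb, and 58 were 1 Mb or longer. Each model held a median of 19 deep regions, of which a median of 9 were called in all 4 libraries. Per 100 kb of deep interior, meaning the model without 10 kb at each end, the density of shared regions, those called in all 4 libraries, had a median of 1.28 and quartiles of 0.489 and 2.59 over genes. The density ran from 0 in 14 genes to 6.86 in CDK14. The 53 genes with most such regions, 21.6% of the genes and 22.9% of the deep interior, held 50% of them. The median density per gene in single libraries was 2.17, 2.02, 1.83 and 1.69.

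**Figure D1:**
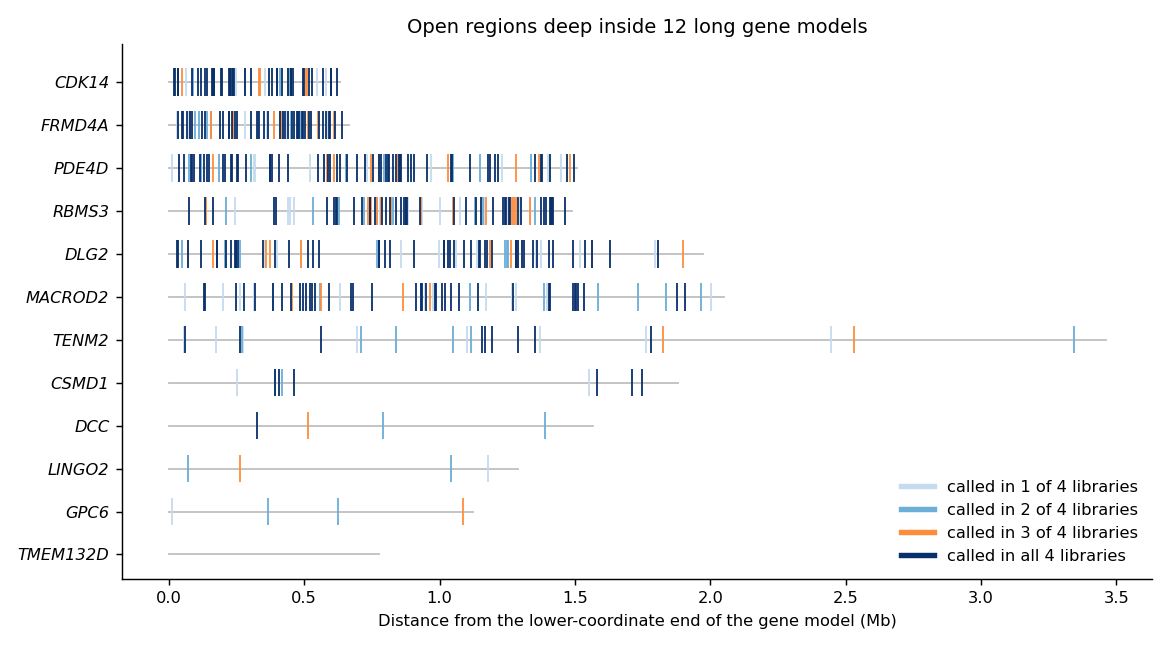
Deep open regions in 12 long gene models, drawn to scale as distance in Mb from the lower-coordinate end of each model, with each tick 1 region coloured by the number of libraries that called it. CDK14 and FRMD4A carry regions along their whole length, with no stretch of 50 kb free of a region of any library, while TMEM132D has no deep region and CSMD1 has an empty stretch of 1090 kb.

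The densest gene was CDK14, which encodes a cyclin-dependent kinase of WNT signalling (chromosome 9, 70678012 to 71310253). It held 53, 52, 47 and 48 deep regions, of which 42 were shared by all 4 libraries. The longest stretch of CDK14 without a region of any library was 37.7 kb. FRMD4A, a scaffold protein of epithelial polarity (chromosome 10, 47384867 to 48048948), came next at 6.37 per 100 kb, with 56, 55, 52 and 50 regions. RAD51B, a protein of homologous recombination (chromosome 7, 91592413 to 92301383), followed at 5.95, with 56, 59, 49 and 53 regions. In each of these 3 genes both BRG1 libraries lay below both controls, as in 132 of the 240 long genes with a region (55.0%) and 18.7% of all models with a deep interior and a region. With every list shortened to the same number of peaks the groups did not separate in that direction in any of the 3, at 46, 45, 46 and 48 regions in CDK14, 52, 50, 48 and 50 in FRMD4A and 47, 50, 46 and 53 in RAD51B.

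The other 7 of the 10 densest genes had 4.87 to 5.86 shared regions per 100 kb. MTERF1, a mitochondrial transcription factor whose model on chromosome 9 overlaps that of CDK14, had 5.86, and 1 region lay deep in both models. PARD3, a polarity protein, had 5.55, GLIS3, a zinc finger transcription factor, 5.33, and ROR1, a receptor for WNT5A, 5.20. PSD3, an exchange factor for ARF6, had 4.99, MAST4, a microtubule-associated kinase, 4.92, and PRKCE, a protein kinase C, 4.87. ROR1 showed the highest agreement of the 10, with 26 of its 31 regions called in all 4 libraries. Of these 10 densest genes, 9 were again among the 10 densest when every list was shortened to its 90851 highest-ranking peaks.

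By number, the phosphodiesterase gene PDE4D, which encodes an enzyme that degrades cyclic AMP, led with 58 shared regions over 1509 kb. It held 74, 79, 71 and 69 regions. DLG2, a synaptic scaffold, had 49 shared regions and RBMS3, an RNA-binding protein, 45, followed by CDK14 (42) and FRMD4A and RAD51B (41 each). MACROD2, a mono-ADP-ribose hydrolase gene at a common fragile site, had 39, NAV2 38, and PARD3, PLCB1 and RORA 34 each. PDE4D, DLG2, RBMS3 and MACROD2 are all over 1.4 Mb long, and their densities of 3.89, 2.51, 3.06 and 1.92 lay below those of the 10 densest genes.

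At the other end, 14 long genes held no region called in all 4 libraries, and 5 of them held no deep region in any library. The 5 were TMEM132D, SORCS3 and UNC5D, which encode membrane proteins of neurons, HS3ST4, a heparan sulphate sulphotransferase, and the unnamed locus LOC106506082. LINGO2 (1290 kb), a neuronal leucine-rich repeat protein, had 3, 3, 2 and 0 regions. GPC6 (1125 kb), a cell surface heparan sulphate proteoglycan, had 3, 3, 1 and 1 regions, and CADM2 (1071 kb), a cell adhesion molecule, 2, 2, 1 and 1. PCDH15, a cadherin of the sensory hair cell, held 1, 1, 0 and 0 regions. CDH8, CPNE4, GALNT13 and FAM19A2 were also among the 14. HS3ST4, CPNE4, GALNT13 and FAM19A2 fall outside the naming rule. With lists of equal length 16 genes had no shared region, and all 14 were among them.

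The 5 longest models differed widely in their number of regions. TENM2, a teneurin of the synapse and the longest model at 3460 kb (chromosome 16, 55624273 to 59084150), had 18, 19, 15 and 10 regions, with 9 shared. Its paralogue TENM3 (2584 kb) had 50, 48, 41 and 42 regions, with 32 shared, and a shared density of 1.25 against 0.262 in TENM2. RBFOX1, a splicing regulator (2271 kb), had 11 shared regions, PTPRD, a receptor tyrosine phosphatase (2181 kb), 6, and MACROD2 (2052 kb) 39. Across the 245 genes, density and model length had a Pearson's r of −0.25 and a Spearman's rho of −0.242, given as a description because genes of 1 set of libraries share their depth.

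Long empty stretches were common inside these genes. The longest without a region of any library was 1090 kb, in CSMD1, a gene of complement control domains at a common fragile site. TENM2 had an empty stretch of 811 kb and LINGO2 one of 781 kb. A stretch of over 200 kb without a region called in all 4 libraries was found in 148 of 245 genes. Neighbouring shared regions of a gene lay a median of 20.6 kb apart (quartiles 8.68 and 50.8 kb, 2815 distances). Of these distances 13.4% were under 5 kb and 11.4% over 100 kb. They were pooled over genes of very different density, and no expected spacing was computed. Whether shared regions form groups was thus not tested.

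Genes were then grouped by what they encode, in 7 lists of which 141 members had a model of 500 kb or longer. The densities of each list are given beside the median of 1.28 over all 245 genes. The lists of signalling, transcription and matrix genes had higher medians than the neural adhesion and fragile site lists, and each list except the 3 RNA-binding genes ran from under 0.4 to over 1.9. No list was tested against the others. The lists were not matched for model length, and density was also lower in longer models.

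Signalling enzymes, receptors and adaptors had a median of 2.65 over 22 genes, and 13 of 22 lay above the overall median. RAD51B, placed in this list although it is a recombination protein, stood highest, followed by ROR1 and PRKCE. PLCB1, a phospholipase C that releases inositol trisphosphate, had 4.73 shared regions per 100 kb and 47, 42, 40 and 40 regions. At the low end stood LRP1B, a lipoprotein receptor, at 0.375 and DAB1, an adaptor of reelin signalling, at 0.25.

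Transcription factors and cofactors had a median of 2.19 over 15 genes, and 10 of 15 lay above the overall median. After GLIS3 came RORA, a nuclear receptor, at 4.57, with 39, 41, 39 and 36 regions. KLF12, a Krüppel-like repressor, had 4.13 and FOXP1, a forkhead factor, 4.12. The lowest were SOX6, an SRY-box factor, at 0.831 and FOXP2, a forkhead factor best known from the brain, at 0.374. FOXP1 and FOXP2 are paralogues, with 25 and 2 shared regions in models of 627.5 and 555.4 kb.

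Matrix, junction, membrane skeleton and cytoskeleton genes had a median of 2.08 over 25 genes, with 15 above the overall median. FRMD4A and PARD3 led, followed by LPP, a LIM protein of focal adhesions, at 4.73, and THSD4, which promotes fibrillin microfibrils, at 4.31. Low values were found for GPC5 at 0.224, HPSE2, a heparanase-like protein, at 0.146 and GPC6 at 0. Receptor phosphatases of 1 family differed widely, with 3.49 for PTPRG and 3.46 for PTPRM against 0.278 for PTPRD and 0.262 for PTPRT. The phosphatases PTPRG, PTPRM and PTPRT were picked out after their values were seen.

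Ion channel and neurotransmitter receptor genes had a median of 1.32 over 20 genes, and 10 of 20 lay above the overall median. GABRG3, a subunit of the GABA-A receptor, had 3.90 shared regions per 100 kb, with 32, 28, 30 and 24 regions. CACNA2D3, an auxiliary subunit of calcium channels, had 3.83. NKAIN2 had 0.298 and RYR2, the cardiac ryanodine receptor, 0.136, while its paralogue RYR3, picked out after its value was seen, had 3.46.

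Genes of axon guidance, neural adhesion and synapse organisation made the largest list, and the median of its 43 genes was 0.859. Of the 43 genes 14 lay above the overall median, 15 lay under the lower quartile of all genes, and 3 had no shared region. Several were nonetheless dense, led by NAV2, a cytoskeletal protein named for neuron navigation, at 4.75, SLIT3, a secreted guidance cue, at 3.85 and NAV3 at 3.26. DCC, the netrin receptor, had a single shared region in 1568 kb, with 4, 4, 2 and 1 regions. Common fragile site genes had a median of 0.753 over 13 genes. The highest value was 1.92 in MACROD2, and 0 of 13 lay above the upper quartile. Each gene was placed in a single list, so any fragile site gene placed in another list is not among these 13. Among the 3 long genes for RNA-binding proteins, RBMS3 had 3.06, KHDRBS2 0.759 and RBFOX1 0.489.

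**Figure D2:**
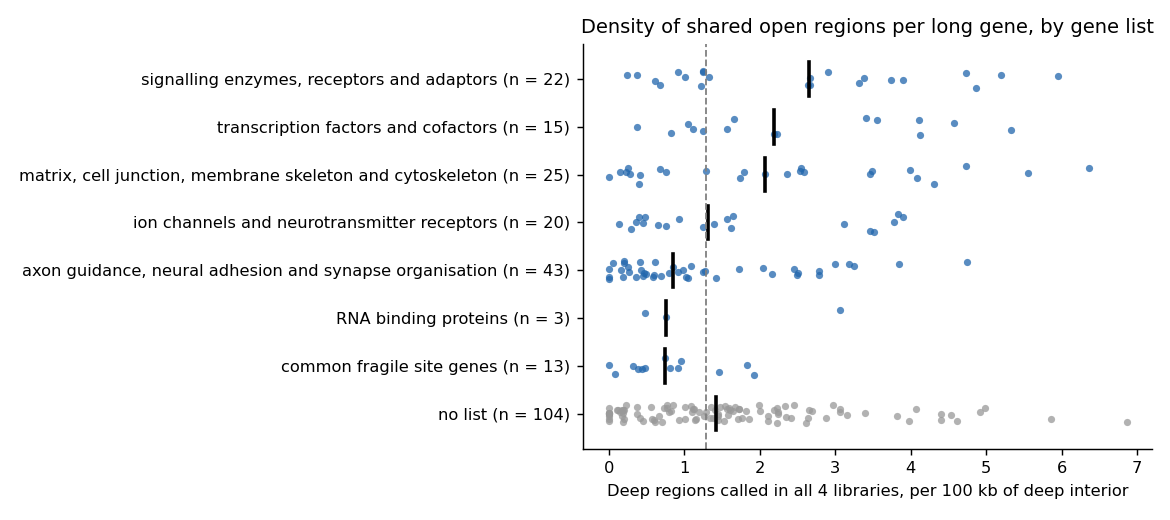
Each point is 1 of the 245 long genes, placed by its number of deep regions called in all 4 libraries per 100 kb of deep interior and grouped by list. Black bars are list medians, from 0.753 for fragile site genes to 2.65 for signalling genes, and the dashed line is the median of all 245 genes, 1.28.

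Dense and sparse interiors were found both in genes with an open end and in genes without one. A peak within 1 kb of either end was called in all 4 libraries for 175 of 245 genes, and their median deep density was 1.34 (quartiles 0.587 and 2.50). The 53 genes with no peak at either end in any library had a median of 1.28 (quartiles 0.395 and 2.66). Those 53 included FRMD4A, ROR1, PSD3 and PDE4D, which are among the genes with the densest or most numerous deep regions, as well as TMEM132D, SORCS3 and UNC5D with none. The remaining 17 genes, with an end called in 1 to 3 libraries, had a median of 1.05. The share of all protein-coding models with an open end is not given here.

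Most of the interior of a model of 500 kb or longer lies far from its ends, and most deep regions lay there too. Of the 5552 regions, 4098 were over 100 kb from both ends of their model, and the median distance to the nearer end was 188 kb. From the ends inward, the density of regions called in all 4 libraries was 1.84 per 100 kb at 10 to 25 kb, 2.07 at 25 to 50 kb, 1.84 at 50 to 100 kb, 1.69 at 100 to 200 kb and 1.48 at 200 to 400 kb. Beyond 400 kb, a space that only 89 models have, it was 0.995. Each bin out to 200 kb covers the same 245 models, with the same space from each. The bins beyond 200 kb hold more of the longest genes, so distance from an end and gene length cannot be told apart there.

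A small number of deep regions lay at the ends of other genes inside the long model. There were 76 regions (1.37%) within 1 kb of an end of another gene model, with a protein-coding end nearest for 24 of them and a long non-coding RNA end for 38. Of the 76, 65.8% were called in all 4 libraries, against 54.7% of the others, and their median percentile was 43.4 against 30.5. The percentile is the rank of a peak's deposited −log10 p within its own list, from 0 to 100, averaged over the libraries that called the region. Examples of high rank, picked out after their values were seen, were the regions at PNPT1, a mitochondrial RNA processing enzyme inside the model of CCDC85A (percentile 95.7), at CSTF2T, a polyadenylation factor inside PRKG1 (92.9), and at FLRT3, an adhesion protein inside MACROD2 (89.1). All 3 were called in all 4 libraries. Leaving out every region within 10 kb of another gene's end kept 5231 regions and gave a median density of 1.28.

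Deep peaks ranked somewhat lower than peaks over 10 kb from both ends of shorter genes. These classes were not matched for distance from the ends. Among deep regions the median percentile was 31.2 at 10 to 25 kb from an end, 35.1 at 25 to 50 kb and 28.2 beyond 400 kb. Regions within 1 kb of a protein-coding gene end were left out of the shorter-gene class but kept among the deep regions. Their median percentile was 42.0, 42.3, 41.1 and 41.0. Peaks deep in models of 50 to under 500 kb had 45.0, 45.3, 44.1 and 44.4. The difference of −3.08 ± 0.225 percentile points (SD, n = 4 libraries) had the same sign in 4 of 4 libraries, and the exact sign-flip test gave p = 0.13, the smallest it can give with 4. Against peaks outside all models and over 10 kb from gene ends the difference was −2.65 ± 0.646 (SD, n = 4, exact sign-flip p = 0.13). Deep peaks were also narrower, by 13.0 ± 1.15 bp in median width (SD, n = 4, exact sign-flip p = 0.13), with medians of 364, 358, 359 and 489 bp.

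Strong deep peaks were few. Peaks above percentile 90 made up 3.66%, 4.09%, 3.29% and 3.87% of deep peaks in the 4 libraries. The corresponding shares in models of 50 to under 500 kb were 5.61%, 5.80%, 5.03% and 5.34%. Shared regions of the 61 densest genes had a median percentile of 53.9 and a median width of 681 bp, while those of the 62 sparsest had 45.0 and 592 bp. Shared regions of the densest genes were thus of higher rank and wider, given as a description with no test.

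The 5 regions of highest rank lay in 5 genes. The highest was a narrow region of 376 bp in PDE4D (chromosome 16, 37934884 to 37935259), 37.6 kb from the lower-coordinate end. Its peak ranked 9, 9, 10 and 17 among all peaks of the 4 lists, with an authors' fold over background of 45.2, 45.8, 45.6 and 40.8. A region of 323 bp in SMYD3, a lysine methyltransferase gene (chromosome 10, 18693273 to 18693595), ranked 23, 22 and 21 in control 1, control 4 and BRG1 1 and 4209 in BRG1 4, where the fold was 32.6 against 44.0 to 44.2. This was the only one of the 5 regions of highest rank whose percentile lay outside 97 to 100 in a library. The other 3 lay in CLSTN2, a synaptic calsyntenin (percentile 99.0), ASTN2, an astrotactin (98.6), and PSD3 (98.6).

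The widest shared regions were of moderate to high rank. A region of 2322 bp lay in FOXP1 (chromosome 13, 52455788 to 52458109), at a mean percentile of 56.6. One of 2264 bp lay in STAG1, a cohesin subunit gene (chromosome 13, 77749515 to 77751778), at 98.4, and one of 2235 bp in FGF12, an intracellular FGF homologue, at 49.6. Regions of 2197 bp in LOC100514494 and 1972 bp in SPAG16, a gene of the sperm axoneme, had 92.3 and 61.9. Only 4 of the 5552 regions were 2 kb or wider, and the median was 433.5 bp.

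Both BRG1 libraries called fewer deep regions than both controls. There were 4604, 4546, 3981 and 3758 deep regions. The means were 4575 ± 41.0 for control and 3869.5 ± 158 for BRG1 (SD, n = 2 each), a ratio of 0.846 with an exact permutation p of 0.33, the smallest that 2 against 2 libraries allow. The same ratio over all regions on chromosomes 1 to 18 was 0.889, for deep regions of models of 50 to under 500 kb 0.878, and for regions within 1 kb of a gene end 0.971. Deep regions made up 4.65% of the regions of control 1, 4.66% of control 4, 4.46% of BRG1 1 and 4.40% of BRG1 4, a difference of −0.229 percentage points (exact permutation p = 0.33). With the 90851 highest-ranking peaks of each list the numbers were 3754, 3809, 3737 and 3762. The ratio was then 0.992, against 1.01 over all regions on chromosomes 1 to 18, and the difference in share was −0.081 points.

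Total length under deep peaks and peak width did not follow the region number. Deep peaks covered 2.08, 2.02, 1.78 and 2.06 Mb, and the groups overlapped (ratio 0.935, exact permutation p = 0.67). The BRG1 mean of the median width was 63.0 bp above that of control (exact permutation p = 0.67). That difference rested on BRG1 4, and without it the value was −2 bp.

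Of the 5552 deep regions, 3045 (54.8%) were called in all 4 libraries, against 62.0% of all regions on these chromosomes and 58.8% of the deep regions of models of 50 to under 500 kb. Regions called in both controls and in neither BRG1 library (control-only) numbered 353 (6.36%), where 4.38% of all regions were control-only. Regions called in both BRG1 libraries and in neither control (BRG1-only) numbered 50 (0.901%), where the share of all regions was 0.736%. The other pairs of libraries had 66 to 108 deep regions of their own (1.19% to 1.95%, against 0.978% to 1.55% of all regions). Missing from BRG1 4 alone were 388 regions (6.99%, against 6.33% of all regions). With lists of equal length there were 143 control-only regions (2.90%, against 2.03% of all regions) and 115 BRG1-only regions (2.33%, against 2.02%). Fewer libraries have to agree when 1 is left out. Control-only regions then numbered 696 without control 1 (13.3%, against 9.89% of all regions), 712 without control 4 (13.6%, against 10.5%), 745 without BRG1 1 (13.7%, against 10.97%) and 565 without BRG1 4 (10.4%, against 7.38%). BRG1-only regions numbered 127 without control 1 (2.43%, against 2.07%), 114 without control 4 (2.18%, against 1.86%), 238 without BRG1 1 (4.39%, against 4.42%) and 213 without BRG1 4 (3.91%, against 3.37%). The BRG1-only share of deep regions was thus not above that of all regions without BRG1 1.

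Regions private to a group were of low rank. The median percentile was 16.2 for control-only and 12.8 for BRG1-only regions, against 52.5 for those called in all 4 libraries. No private region exceeded a mean percentile of 48.6. Whether a peak is called depends on its score, so this contrast follows in part from how the patterns are defined. It was not tested, and ranks of private regions outside the long genes are not given here. Control-only regions among the 5 of highest rank lay in ADGRV1, an adhesion receptor (chromosome 2, 98219699 to 98220009, percentiles of 46.6 in control 1 and 50.6 in control 4), ARHGAP15, a Rac GTPase-activating protein, SEMA6D, a semaphorin, and PREP, a prolyl endopeptidase. The BRG1-only regions of highest rank lay in NAV2 (chromosome 2, 39459748 to 39460067, percentiles of 46.3 in BRG1 1 and 32.1 in BRG1 4), SOX5, PHACTR1, a regulator of phosphatase 1 and actin, GRM5, a glutamate receptor, and CACNA2D3. Control-only regions were spread over 159 genes, with at most 7 in a gene (ADAMTSL1 and ANKS1B), and BRG1-only regions over 39 genes, with at most 3 (MAGI1 and ENOX1). ANKS1B, MAGI1 and ENOX1 were named after their values were seen.

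**Figure D3:**
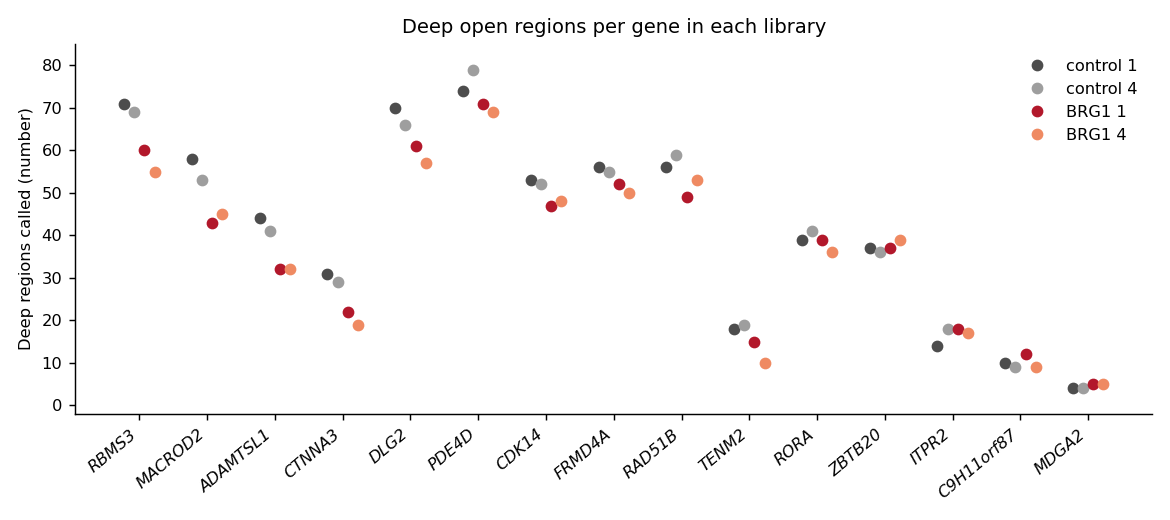
Number of deep regions called in each of the 4 libraries for 15 long genes: the 5 with the lowest difference between the BRG1 and control means, 4 of the 5 with the highest, and 6 others described in the text. In RBMS3, MACROD2, ADAMTSL1, CTNNA3 and DLG2 both BRG1 points lie below both control points, while in MDGA2 they lie above.

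Gene by gene, both BRG1 libraries lay below both controls in 132 of the 240 long genes with a deep region (55.0%), and above both in 2. Over all 6590 protein-coding models with a deep interior and at least 1 region, the shares were 18.7% below and 1.17% above. Long models hold a median of 19.5 regions against 3 in all models with a deep interior. In models of 200 to under 500 kb, with a median of 12 regions, the share below was 39.1%. In lists of equal length 32 long genes lay below and 29 above, of 238 with a region, where 4.97% and 6.76% of all models did. Of the 132 genes, 30 were below in both settings and 5 turned to above. Leaving out control 1, control 4, BRG1 1 and BRG1 4 in turn gave 160, 172, 184 and 154 long genes below and 11, 5, 4 and 13 above. The shares over all models were not computed for these settings.

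The genes in which the mean region number of BRG1 was furthest below that of control were RBMS3, MACROD2, ADAMTSL1, CTNNA3 and DLG2. RBMS3 held 71, 69, 60 and 55 regions. From equal lists it held 53, 54, 54 and 55, and its groups no longer separated in that direction. MACROD2 held 58, 53, 43 and 45 regions, and 49, 46, 42 and 45 with lists of equal length, where both BRG1 libraries were still below. ADAMTSL1, a secreted ADAMTS-like matrix protein, held 44, 41, 32 and 32, and with equal lists 33, 32, 31 and 32. CTNNA3, an alpha-catenin of cell junctions, held 31, 29, 22 and 19 regions, and with equal lists 20, 22, 20 and 19. DLG2 held 70, 66, 61 and 57, and with equal lists 60, 55, 57 and 57.

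Among the 2 genes in which both BRG1 libraries were above both controls was MDGA2, an adhesion protein that binds neuroligin, with 4, 4, 5 and 5 regions. It was also above with lists of equal length, at 3, 2, 4 and 5. ZBTB20, a zinc finger repressor, held 37, 36, 37 and 39 regions, and its groups overlapped, as did those of ITPR2, an inositol trisphosphate receptor (14, 18, 18 and 17), and C9H11orf87 (10, 9, 12 and 9).

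**Figure D4:**
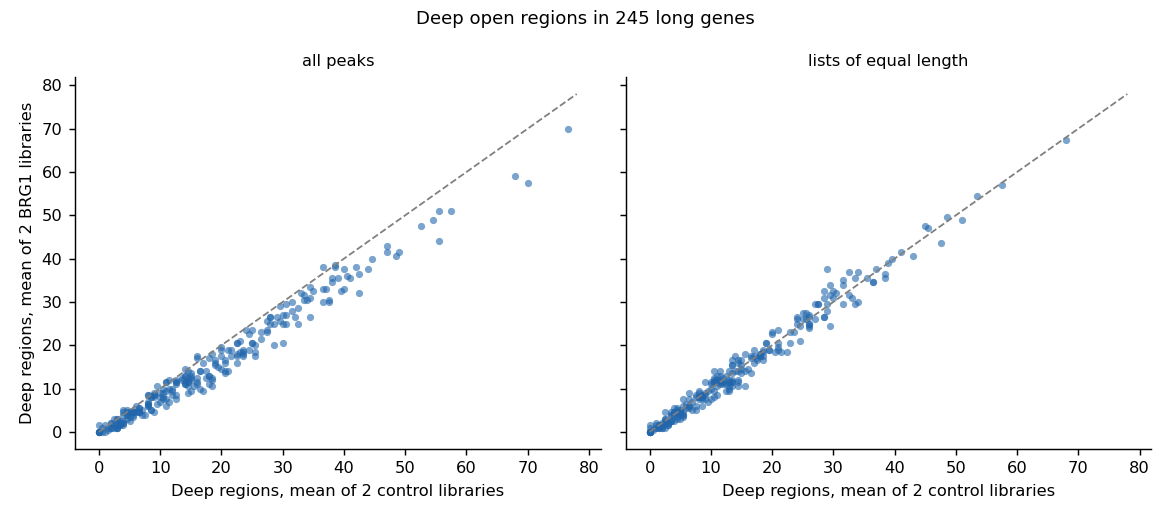
Mean number of deep regions per gene in the 2 BRG1 libraries against the 2 control libraries, for the 245 long genes, with all peaks (left) and with every list shortened to 90851 peaks (right); the dashed line marks equal numbers. With all peaks most genes lie below the line (ratio of the totals 0.846), and with lists of equal length they scatter around it (0.992).

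Gene length was set against these measures over shorter and longer models. The median density of regions called in all 4 libraries was 2.76 per 100 kb in models of 50 to 100 kb, 2.62 at 100 to 200 kb and 2.42 at 200 to 500 kb. It was 1.65 at 500 to 750 kb, 1.05 at 750 to 1000 kb and 0.718 in the 58 models of 1 Mb or longer. At the limit of the rule, the 5 models just over 500 kb had densities of 0 to 2.69 and the 5 just under it 1.05 to 3.55. Between models and over 10 kb from their ends the density was 2.17, pooled over all bases and not a median over genes. Pooled over all bases, deep interiors of long models had 1.54 shared regions per 100 kb and those of 50 to 500 kb 3.11.

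Calls also differed along the length scale. The share of deep regions called in all 4 libraries was 59.8% in models of 50 to 100 kb and 52.3% in models of 1 Mb or longer, and with lists of equal length 61.3% and 54.1%. The BRG1 to control ratio of region number was 0.886 in models of 50 to 100 kb, 0.864 at 500 to 750 kb and 0.808 at 1 Mb or longer. In equal lists, chosen for this comparison after seeing the data, it was 1.02, 1.00 and 0.966. Control-only shares were 4.49%, 5.65% and 7.98% in these 3 classes with all peaks and 1.72%, 2.64% and 3.12% with lists of equal length, beside BRG1-only shares of 2.07%, 2.02% and 2.67%. No test over libraries of these trends was run.

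**Figure D5:**
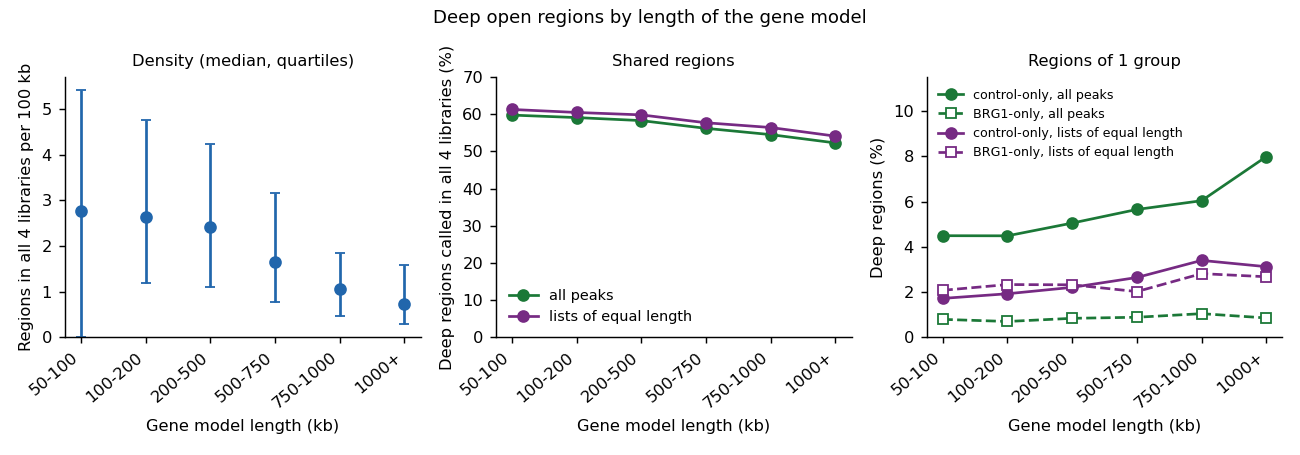
Deep regions by length of the gene model: median density with quartiles over genes (left), percent called in all 4 libraries (middle) and percent control-only or BRG1-only (right), with all peaks and with lists of equal length. Density and the shared percent are lower in longer models, from 2.76 to 0.718 per 100 kb and from 59.8% to 52.3%.

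Among chromosomes, chromosome 13 held most long models (36) and most deep regions (925, of which 514 were shared). The density of shared regions pooled over the long models of a chromosome ran from 1.04 per 100 kb on chromosome 15 (19 models) to 2.46 on chromosome 12 (2 models), with 2.39 on chromosome 7 (12 models).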

How the data were processed

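The data are 4 ATAC-seq peak lists in narrowPeak layout, 1 per library, with no counts. FastQC, BWA, Bowtie, SAMtools, MACS2 and the build Sscrofa11.1 are named, with no role or version, per the submitters' processing notes. How Tn5 shift, duplicates and caller settings were handled is not given in the sources used here, and it can change the number and width of peaks. The deposited fold (the signal column of the layout) is used as the authors' ratio over background, the −log10 p and q columns are those of the authors' caller (lowest −log10 q 1.31 to 1.35), and the deposited score, close to 10 times the −log10 q, was not used. Fold and −log10 p were used only within their own list.

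List length, threshold, merging overlap, model length, distance from ends and each library were varied as alternatives. Peaks were merged by 1 bp of overlap with Python 3.11.15 and pandas 2.3.3. Gene positions came from the RefSeq table of Sscrofa11.1. Tests were exact and two-sided: permutation of libraries between groups, or sign flips of differences within libraries. The merging was tested on simulated peaks. Named genes were the 10 with most shared regions, the 10 densest, the 10 sparsest, the 5 longest, the 5 lowest and 5 highest differences between BRG1 and control means, the 5 regions of highest rank, width or rank among private regions, and 2 to 4 examples a list; some that the rule selects are not reported here, and others are said to be chosen after their values were seen. Of 278 listed genes, 272 were found on chromosomes 1 to 18. Members and lists were chosen with earlier results of these data known.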

Additional observations from a re-analysis of the deposited data

How the results depend on the processing

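Other settings gave 124 values, of which 94 were labelled the same, 29 moved and 1 changed sign. Counts were the same within 1.5 times. The median density was the same if it changed by less than 0.211, the SD of the median densities of the 4 libraries. For ratios and differences the side alone was counted, whatever the size. The 94 thus include the ratio of deep regions of 0.992 and the difference in share of −0.081 points with equal list length, against 0.846 and −0.229 with all peaks. Equal list length gave 115 BRG1-only and 143 control-only regions, and genes with BRG1 below or above control numbered 32 and 29. With models of 1 Mb or longer there were 13 BRG1-only (0.851%), 122 control-only (7.98%) and 799 shared regions (52.3%). Of all regions, 0.736%, 4.38% and 62.0% had these patterns. The median density was 0.718, and 40 and 0 of 58 genes with a region lay below and above. With models of 300 kb or longer the same patterns had 113 (0.902%), 690 (5.51%) and 7091 regions (56.6%). The median density was 1.78, and 306 and 9 of 649 genes with a region lay below and above. Over all models with a deep interior and a region, 18.7% lay below and 1.17% above. These counts cover different numbers of models. Over the 4 settings that each drop 1 library, BRG1-only regions ranged from 114 to 238 and control-only ones from 565 to 745. The median density ranged from 1.34 to 1.56 (1.56 without BRG1 4). Genes below ranged from 154 to 184 and genes above from 4 to 13. Fewer libraries had to agree in these settings, and the shares of genes below and above over all models were not computed for them. The width difference between groups ranged from −2 to 128 bp and turned without BRG1 4. Replicate number as a block gave a ratio of 0.845 and a difference of −0.229 percentage points (exact sign-flip p = 0.5 each, the smallest possible) and a width difference of 63 bp (p = 1). Deviations of same-numbered libraries in percentile correlated at 0.0042 over 3045 shared regions. Whether same-numbered libraries share a culture or a batch was not tested by this value and is not in the labels. Without reads or counts, the depth behind a missing call cannot be given.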

Other observations

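Long models outside the rule were counted in the same way. On chromosome X, 12 protein-coding models of 500 kb or longer held 148 deep regions, 73 of them in all 4 libraries, with a median density of 0.311 per 100 kb. DMD, which encodes dystrophin and spans 2623 kb, held 11, 13, 7 and 8 regions in the 4 libraries, with 5 shared. ARHGAP6 (531 kb) held 35, 34, 29 and 29 regions and had the highest density of the 12 at 4.89, while DACH2 and PCDH11X held 0 in every library. The labels do not give the sex of the cells, so the number of X copies behind these values is unknown.

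Long non-coding RNA models of 500 kb or longer on chromosomes 1 to 18 numbered 37 and held 627 deep regions, 334 of them in all 4 libraries. Their median density was 0.996 and the densities ran from 0 to 4.21, and 1 model had no region called in all 4 libraries. LRMDA, annotated in this table as a long non-coding RNA of 1094 kb, held 28, 25, 25 and 23 regions, of which 13 were shared.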
